A study of Mesocricetus auratus with 36 samples.

Results

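Refractory golden hamsters were compared with golden hamsters in late pre-hibernation, that is, warm, active animals on either side of the hibernation season, housed in the same light and the same cold. The libraries were chosen by their titles, SP refractory 1 to 6 and SP late pre-hib 1 to 6, which makes 12 of the 36 libraries of the series. Each library is RNA from the ependymal region of the hypothalamus of 1 male golden hamster (Mesocricetus auratus), cut out by laser capture to enrich for tanycytes. Both groups lived on 10 h of light a day at 8 °C. Late pre-hibernation animals, labelled 6 months old, were taken after 8 to 12 weeks of this regime and before their first torpor. Refractory animals, labelled 8 months old and reproductive, had been through the hibernation season, had ended it by themselves at about 20 weeks, and had been free of torpor for 2 weeks or longer when taken. An earlier step of the same series was used beside this comparison: pre-hibernation animals, labelled 4 months old and taken after 4 weeks of 10 h light at 8 °C, against long photoperiod animals, labelled 8 months old and reproductive, kept on 14 h light at 22 °C. Per the labels' protocol some long photoperiod animals were taken at the start and others at the end, while all 6 are labelled with the same age. Torpor and interbout euthermia animals, whose levels are also given by stage, were labelled 6 months old. They too lived on 10 h of light a day at 8 °C, for 8 to 12 weeks. Age, reproductive state, time in the cold and a completed hibernation season differ together between refractory and late pre-hibernation animals and cannot be told apart. In the same way, photoperiod, temperature and age cannot be told apart in the earlier step.

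Tanycytes are glial cells of the wall of the third ventricle, with one end in the cerebrospinal fluid and a long process into the hypothalamus. They carry the receptor for thyrotropin, by which the pars tuberalis passes on the length of the day, and they hold the deiodinases that set local thyroid hormone: Dio2 makes the active hormone and Dio3 breaks it down. Seasonal mammals kept on short days for many months return by themselves to the summer state, which is called photorefractoriness.

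The 11 libraries of the main comparison held from 17139085 to 28541745 counts, with 0.292 to 0.669% on ribosomal RNA genes. SP refractory 4 stood apart, with 5161108 counts, 41.8% of them on ribosomal RNA genes and 18.3% on mitochondrially encoded genes. It was therefore left out of the main comparison, so that 5 refractory animals stood against 6, and the genes of the lead results are also given with it. Pre-hibernation 5 (9.28% ribosomal RNA) and interbout 6 (7.21%) were left out of the shared fit for the same reason. The captured strip carried tanycyte genes in both groups: the summed level of 23 tanycyte markers was 3777 ± 801 counts scaled to a common library size (CPM) in late pre-hibernation (SD, n = 6) and 3866 ± 727 CPM in refractory animals (SD, n = 5; exact two-sided permutation test, p = 0.846). Vim stood at 1095 ± 150 and 1123 ± 132 CPM, and Rax, a transcription factor of tanycytes, at 155 ± 46.7 and 125 ± 46.1 CPM; neither passed the test (adjusted p = 0.890 and 0.609). Nes, an intermediate filament gene of tanycytes, was at 129 ± 21.5 and 120.5 ± 15.1 CPM (adjusted p = 0.640). The 44 ependymal and motile cilia genes that were tested were also present in the strip, with 0 of them at 0 in all 11 libraries. Gfap and Cirbp, fixed for naming, were not analysed here.

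Refractory animals had lower levels of Ngfr, Inhba, Cited1, Cryab and Hspb1 and higher levels of Notum, Crabp1, Ghrh, Penk and 14 ependymal and motile cilia genes than late pre-hibernation animals. Of 17903 genes tested, 572 were lower in refractory animals (3.19%) and 435 were higher (2.43%), 5.62% in all, at an adjusted p under 0.05 in edgeR's quasi-likelihood test. The falls were deeper than the rises: the median log2 change was -0.65 among the falls and 0.48 among the rises, and 149 of the falls but 36 of the rises passed 2-fold. The 6 and 5 values did not overlap for 232 of the 572 falls and 119 of the 435 rises, against 1.77% and 1.09% of all genes, 2.86% in all. In bulk tissue, fewer cells of a type and less RNA per cell cannot be told apart. With SP refractory 4, pre-hibernation 5 and interbout 6 all back in the fit (36 libraries), 439 genes were lower, 377 of them among the 572. In that fit 528 were higher, of which 137 were among the 435. All gene and list results given with SP refractory 4 come from this fit of 36 libraries. With only SP refractory 4 left out, so that pre-hibernation 5 and interbout 6 stayed in the shared fit, 276 genes were lower and 118 higher. The count of rises depended on single animals: it was 81 without late pre-hibernation 1 and 989 without late pre-hibernation 4. The count of falls went from 219 without refractory 2 to 1102 without late pre-hibernation 4.

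**Figure D1:**
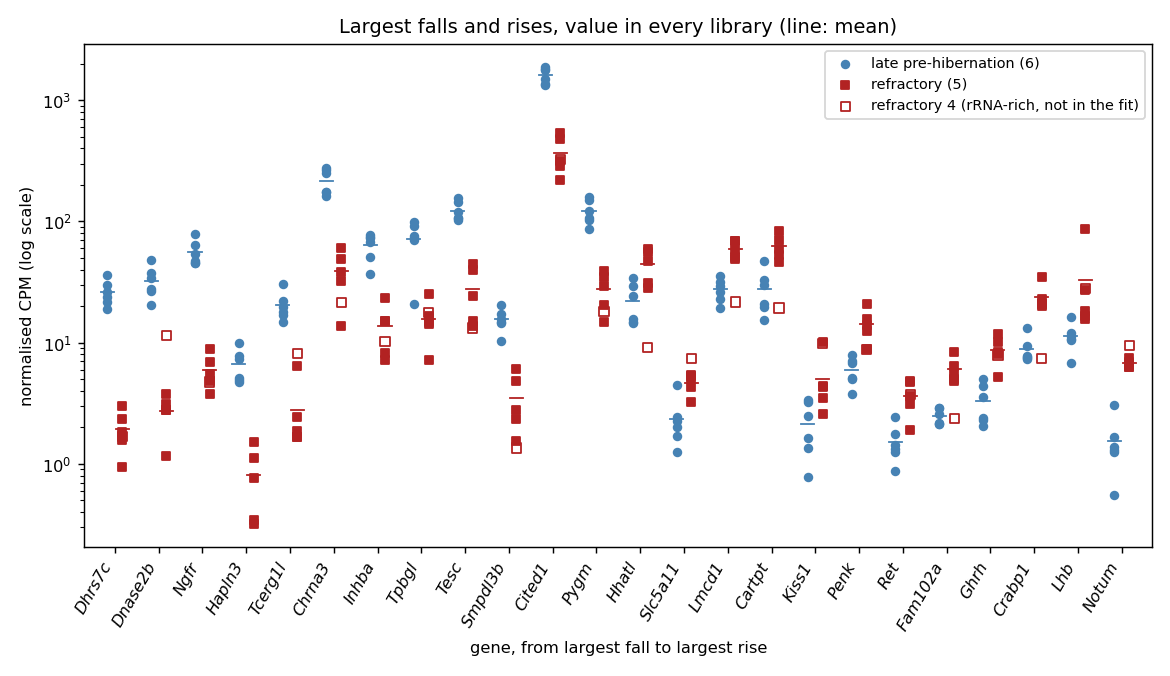
Normalised CPM on a log axis for the 12 largest falls and 12 largest rises among called genes, one symbol per library and a line at each group's mean over 6 late pre-hibernation and 5 refractory libraries. All 12 falls except Tpbgl separate the groups completely; open squares are SP refractory 4, which lies inside or near the refractory range for most falls but in the late pre-hibernation range for Crabp1, Cartpt, Fam102a and Lmcd1 (its value of 0 for Hapln3 cannot be drawn).

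Ngfr and Chrna3 were the receptor genes among the 12 largest falls. Ngfr encodes the p75 neurotrophin receptor. Its level in the 6 late pre-hibernation libraries ran from 45.2 through a median of 50.7 to 79.1 CPM, and in refractory 1, 2, 3, 5 and 6 it was 5.51, 3.75, 8.86, 4.80 and 6.90 CPM. Every refractory library lay under every late pre-hibernation library by a wide margin, SP refractory 4 included at 4.74 CPM. The log2 change was -3.22 ± 0.52 (SE; adjusted p = 0.000594), 9.30-fold, and it stayed past the threshold in all 11 fits that left out 1 library. Chrna3, a subunit of neuronal nicotinic acetylcholine receptors, ran from 162 through 213 to 278 CPM in late pre-hibernation and was 13.8, 32.01, 60.3, 38.2 and 49.1 CPM in the refractory libraries. Its groups did not overlap either, although the refractory animals differed among themselves more than 4-fold (log2 change -2.49 ± 0.53, adjusted p = 0.00704). SP refractory 4 was at 21.3 CPM (adjusted p = 0.00245 with it). Trpc5, a cation channel with a known role in cold sensing, ran from 60.5 through 107 to 155 CPM and was 11.1, 27.7, 51.3, 19.4 and 32.1 CPM in the refractory libraries. That fall (-2.01 ± 0.60, adjusted p = 0.0449) passed in only 4 of the 11 fits with 1 library left out, and its adjusted p reached 0.131 without refractory 1. Trpv2, another channel of that superfamily, was at 4.04 ± 0.86 and 2.29 ± 0.47 CPM with no overlap but did not pass (adjusted p = 0.113). Gpr50, an orphan receptor related to the melatonin receptors and known from tanycytes, was low throughout, from 1.94 through 5.04 to 8.61 CPM in late pre-hibernation and 0.476, 0.995, 1.12, 2.84 and 2.92 CPM in the refractory libraries. Its fall (-1.65 ± 0.48, adjusted p = 0.0390) held in 3 of the 11 fits and did not pass with SP refractory 4 (adjusted p = 0.0721).

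Inhba, Hapln3 and Tpbgl, which encode secreted or cell-surface proteins, were also among the 12 largest falls. Inhba encodes the subunit that forms activin A. It ran from 37.02 through 70.6 to 78.0 CPM in late pre-hibernation and was 7.18, 15.0, 15.1, 8.22 and 23.4 CPM in the refractory libraries. The groups were apart, with late pre-hibernation 4 the lowest of its group, and the change was -2.21 ± 0.41 (adjusted p = 0.00230). SP refractory 4 was at 10.2 CPM (adjusted p = 0.00136 with it). Of 38 tested genes of the activin, inhibin and TGF beta family, 3 were lower (7.89%, against 3.19% of all genes) and 0 higher. The list median was 0.053 against -0.005 over all genes, and without refractory 2 only 1 member passed. The other falls were Fstl3, a secreted activin antagonist, from 8.10 ± 1.09 to 5.22 ± 1.00 CPM, and Bmpr1b, a receptor for bone morphogenetic proteins, from 61.6 ± 10.1 to 46.1 ± 7.39 CPM. With SP refractory 4 neither of those passed (adjusted p = 0.208 and 0.136). Hapln3, a link protein that holds hyaluronan to proteoglycans, went from 6.62 ± 2.05 to 0.815 ± 0.517 CPM (log2 change -3.02 ± 0.44). Hapln1, its relative, Ncan, a brain proteoglycan, Timp1, an inhibitor of metalloproteinases, Mmp14, a membrane metalloproteinase, and Col5a1, a fibrillar collagen, were the 5 of 44 extracellular matrix genes that fell; none of that list rose, and its median was -0.031. The 5 falls were 11.4% of the list, against 3.19% of all genes. Without refractory 1 only 1 member of that list passed, and with SP refractory 4 it had 2 falls and 2 rises. Tpbgl, a membrane protein with leucine-rich repeats, ran from 21.01 through 74.99 to 99.5 CPM in late pre-hibernation and was 7.18, 14.2, 16.7, 14.7 and 25.2 CPM in the refractory libraries. Its only overlap came from late pre-hibernation 4, the lowest of its group.

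Regulators and enzymes were the rest of the largest falls. Cited1, a transcriptional co-activator without a DNA-binding domain, ran from 1328 through 1631 to 1884 CPM in late pre-hibernation and was 219, 317, 476, 285 and 536 CPM in the refractory libraries. No library of either group came near the other group's range, and SP refractory 4 was at 326 CPM (log2 change -2.13 ± 0.41, adjusted p = 0.00280). Dhrs7c, a short-chain dehydrogenase known from muscle sarcoplasmic reticulum, ran from 19.1 through 24.98 to 36.1 CPM and was 0.952, 1.58, 2.33, 1.84 and 2.99 CPM in the refractory libraries. This was the largest fall among the genes named by size, which leave out those with only a LOC number, at -3.74 ± 0.60, or 13.3-fold (adjusted p = 0.000594). Dnase2b, an acid endonuclease, went from 32.5 ± 9.84 to 2.73 ± 0.96 CPM, Tesc, a calcium-binding protein of the calcineurin-homologous type, from 123 ± 23.0 to 27.6 ± 14.2 CPM, and Smpdl3b, a phosphodiesterase at the cell membrane, from 15.6 ± 3.41 to 3.52 ± 1.88 CPM. None of these overlapped between groups. Tcerg1l went from 20.3 ± 5.46 to 2.81 ± 2.04 CPM, with its highest refractory value of 6.4 CPM in refractory 3; it passed in 7 of the 11 fits with 1 library left out and not in the 35-library fit (adjusted p = 0.0612).

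Small heat shock proteins made up 4 of the 5 falls among heat shock genes. Of 29 tested heat shock proteins and chaperones, 5 were lower (17.2%, against 3.19% of all genes) and 0 higher, and the list median was -0.11. Cryab, a small heat shock protein that keeps damaged proteins from clumping, ran from 791 through 1254 to 1692 CPM in late pre-hibernation and was 304, 424, 316, 280 and 593 CPM in the refractory libraries. Hspb1, another of that family, ran from 157 through 175 to 232 CPM and was 48.0, 58.7, 41.9, 32.9 and 50.5 CPM. Both had groups far apart, and SP refractory 4 fell on the refractory side for each, at 332 and 24.4 CPM. The log2 changes were -1.74 ± 0.26 for Cryab (adjusted p = 0.000255) and -1.97 ± 0.31 for Hspb1 (adjusted p = 0.000463), and both held in all 11 fits with 1 library left out. Hspb2, which lies beside Cryab in mammalian genomes, went from 117 ± 25.7 to 62.9 ± 20.96 CPM, Hspb6 from 89.3 ± 19.0 to 46.8 ± 13.1 CPM, and Hsf2, a heat shock transcription factor, from 89.8 ± 10.0 to 64.9 ± 6.21 CPM. All 5 had risen after 4 weeks in the cold. Hspb8, a further small heat shock protein, did not pass at 119 and 118.5 CPM (adjusted p = 0.975). Hspa5, the chaperone of the endoplasmic reticulum, was at 971 and 780.5 CPM (adjusted p = 0.177), and Hsf1, the main heat shock factor, at 71.7 and 73.0 CPM (adjusted p = 0.892). In the unfolded protein response list, 3 of 25 fell (12.0%, against 3.19% of all genes): Asns, which makes asparagine, Chac1, which degrades glutathione, and Sesn2, a stress-induced sestrin. Chac1 did not pass with SP refractory 4 (adjusted p = 0.0727), and without late pre-hibernation 1 only 1 member of the list passed.

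Thyroid hormone genes did not move together. Of 20 tested, Thrb alone fell (5.0%, against 3.19% of all genes) and Hr alone rose (5.0%, against 2.43%). The list median was -0.033. Thrb, a nuclear receptor for thyroid hormone, ran from 75.5 through 106 to 133 CPM in late pre-hibernation and was 22.2, 47.7, 63.9, 41.4 and 64.6 CPM in the refractory libraries, with no overlap (log2 change -1.09 ± 0.26, adjusted p = 0.0129). SP refractory 4 was at 46.4 CPM (adjusted p = 0.0101 with it). Hr, a corepressor that thyroid hormone induces, ran from 13.3 through 21.7 to 29.1 CPM and was 27.1, 38.7, 29, 41.9 and 25.8 CPM. Its groups overlapped, and the rise (0.61 ± 0.17, adjusted p = 0.0269) passed in 5 of the 11 fits with 1 library left out. Dio3 ran from 12.6 through 19.4 to 31.4 CPM and was 1.71, 9.01, 6.53, 4.96 and 8.77 CPM in the refractory libraries. The groups did not overlap, but the change of -1.77 ± 0.68 did not pass in the fit of all stages (adjusted p = 0.114). In a fit of these 11 libraries alone Dio3 passed (adjusted p = 0.0315), whereas Hr did not (adjusted p = 0.0902). Dio2 ran from 3.28 through 5.24 to 7.89 CPM and was 3.05, 3.22, 7.79, 4.53 and 5.25 CPM in the refractory libraries. The ranges of Dio2 were nearly the same in both groups (-0.13 ± 0.41, adjusted p = 0.888), against 46.1 ± 20.9 CPM on long photoperiod. Crym, which binds the hormone in the cytosol, was at 340 ± 157 and 703 ± 340 CPM (adjusted p = 0.0521) and Tshr, the thyrotropin receptor, at 114 ± 28.3 and 86.0 ± 26.5 CPM (adjusted p = 0.231); neither of these passed.

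Among 17 retinoid genes, 2 rose (11.8%, against 2.43% of all genes) and 0 fell, with a median of 0.081. Crabp1, which binds retinoic acid in the cytosol, had the smallest adjusted p of all the rises named. It ran from 7.36 through 7.72 to 13.3 CPM in late pre-hibernation and was 20.7, 20.95, 35, 23.1 and 20.1 CPM in the refractory libraries. The 5 refractory libraries lay above every late pre-hibernation library, whereas SP refractory 4, at 7.45 CPM, lay inside the late pre-hibernation range. The change was 1.44 ± 0.18 (adjusted p = 1.03e-05), held in all 11 fits with 1 library left out, and was 1.29 with SP refractory 4 (adjusted p = 0.00245). Rdh10, which starts retinoic acid synthesis from retinol, went from 14.5 ± 4.17 to 27.1 ± 7.95 CPM (0.90 ± 0.21, adjusted p = 0.0107). Stra6, the retinol uptake receptor, ran from 10.3 through 59.7 to 103 CPM and was 89.4, 102, 164, 232 and 253 CPM in the refractory libraries; it did not pass (1.51 ± 0.53, adjusted p = 0.0831). Lrat, which stores retinol as an ester, stayed at 4.45 ± 1.04 and 5.18 ± 1.39 CPM (adjusted p = 0.794), against 79.0 ± 40.98 CPM on long photoperiod.

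**Figure D2:**
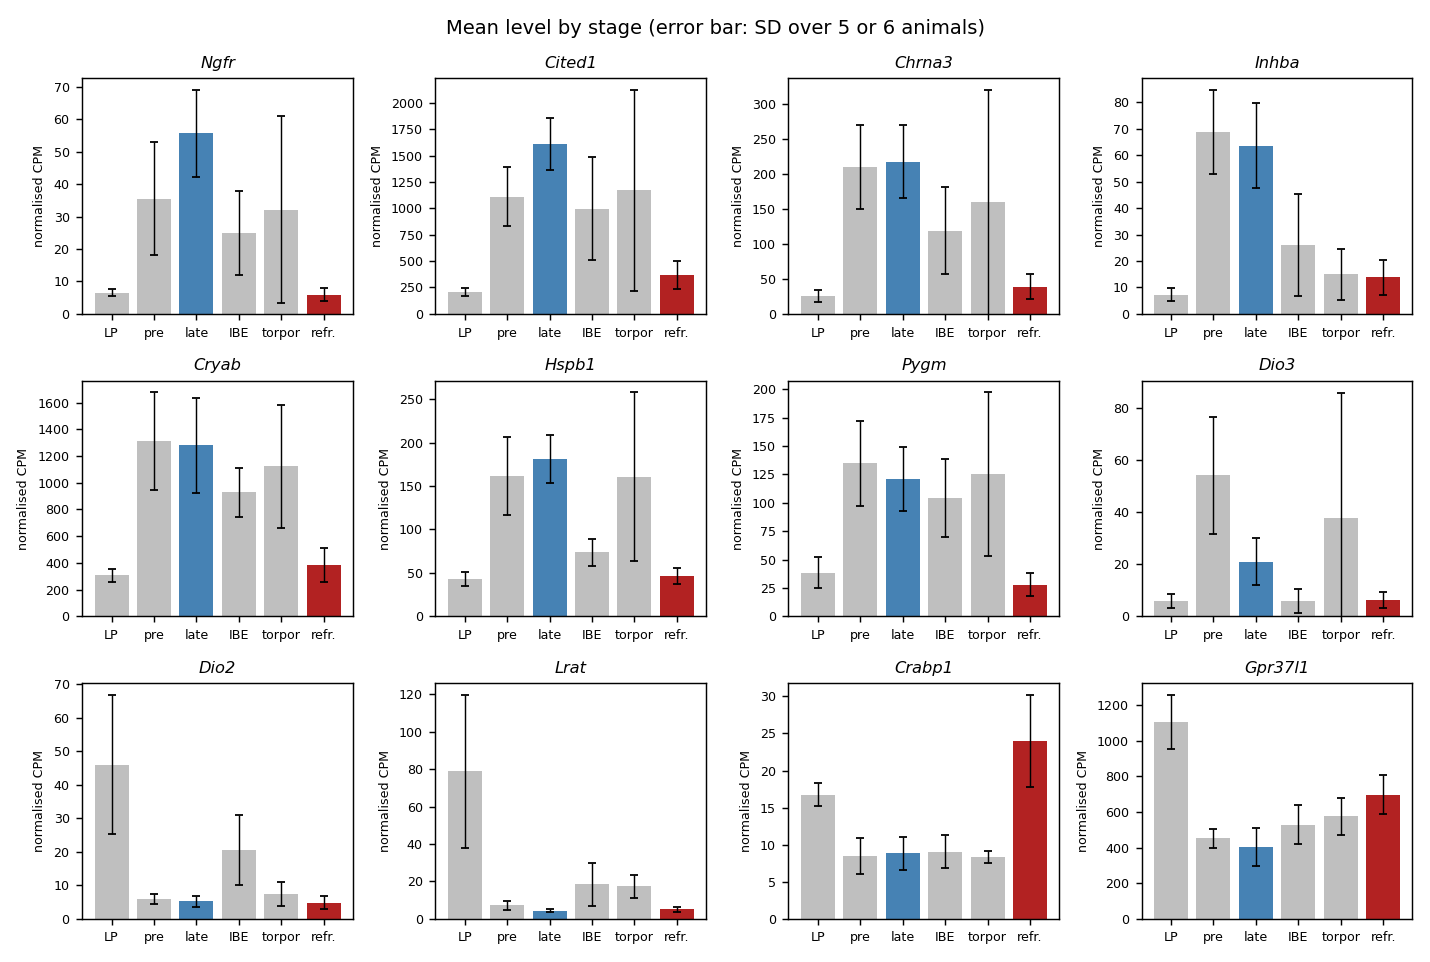
Mean normalised CPM with SD in each of the 6 stages, from long photoperiod (LP) through pre-hibernation (pre), late pre-hibernation (late, blue), interbout euthermia (IBE) and torpor to refractory (refr., red), over 5 or 6 animals each. Refractory levels of Ngfr, Inhba, Cryab, Hspb1 and Pygm lie within 2-fold of the long photoperiod levels, while Dio2 (4.77 CPM) and Lrat (5.18 CPM) stay far under their long photoperiod means of 46.1 and 79.0 CPM.

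Of 44 tested genes of ependymal cells and their motile cilia, the beating hairs of these cells, 14 rose in refractory animals (31.8%, against 2.43% of all genes) and 0 fell; 43 of the 44 had a log2 change above 0 and the median was 0.35. Cfap65, a protein of the ciliary axoneme, ran from 54.8 through 76.5 to 81.8 CPM in late pre-hibernation and was 107, 108.5, 91.0, 115 and 98.1 CPM in the refractory libraries. Dnah12, a dynein heavy chain, ran from 90.9 through 114 to 129 CPM and was 149, 202, 131, 150 and 136 CPM. Both separated the groups without overlap, Dnah12 narrowly. SP refractory 4 lay far above all of these libraries, at 306 CPM for Cfap65 and 457 CPM for Dnah12. With it the log2 change went from 0.516 to 0.925 for Cfap65 and from 0.455 to 0.874 for Dnah12. Tekt4, a tektin of ciliary microtubules, went from 164 ± 30.5 to 244 ± 39.2 CPM with overlap (0.57 ± 0.13, adjusted p = 0.0103). SP refractory 4, at 94.1 CPM, lay below every late pre-hibernation library, and with it Tekt4 did not pass (0.42, adjusted p = 0.128). The changes were modest, and the 14 genes ranged from Cfap54 at 0.28 to Tekt4 at 0.57. Foxj1, the master regulator of motile cilia, was at 36.5 and 49.1 CPM and did not pass (adjusted p = 0.273). The summed level of the list was 9111 ± 1201 CPM in late pre-hibernation and 11670 ± 1763 CPM in refractory animals; this difference did not survive adjustment over the 11 marker lists (exact two-sided permutation test, p = 0.0238, adjusted p = 0.0953). SP refractory 4 had a sum of 8768 CPM, under the late pre-hibernation mean, and with it 12 members rose. DESeq2 called 19 of them higher and limma voom 32. Without late pre-hibernation 1 only 2 members passed. Whether more ciliated cells were captured or each held more RNA was not tested.

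**Figure D3:**
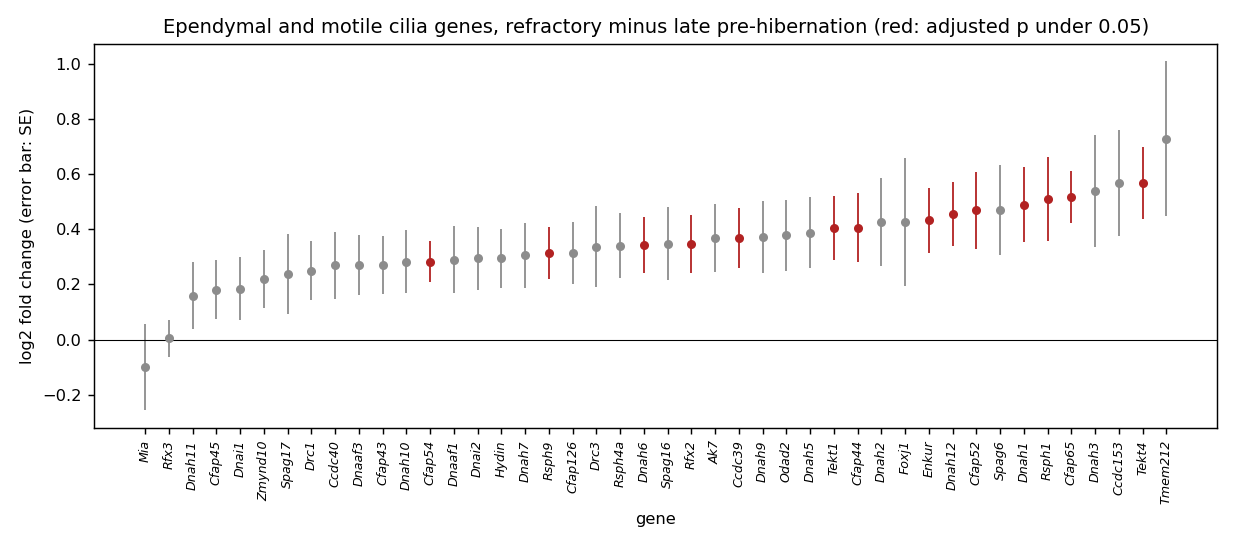
Log2 change from late pre-hibernation to refractory with its SE for each of the 44 ependymal and motile cilia genes tested, in rising order; red marks the 14 past an adjusted p of 0.05. All but Mia lie above 0, between 0.01 and 0.73.

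Of 22 hypothalamic neuropeptide genes tested, 4 rose (18.2%, against 2.43% of all genes) and 1 fell (4.55%, against 3.19%), with a median of 0.091. Without refractory 2 only 2 of them passed. Penk, the precursor of the enkephalins, ran from 3.79 through 5.98 to 7.98 CPM and was 12.6, 14.0, 20.9, 8.84 and 15.6 CPM in the refractory libraries. Ghrh, the growth hormone releasing hormone, ran from 2.07 through 2.98 to 4.97 CPM and was 10.2, 8.43, 8.06, 5.19 and 11.8 CPM. Neither gene overlapped between groups, and both held in all 11 fits with 1 library left out (1.27 ± 0.21, adjusted p = 0.000700 for Penk; 1.41 ± 0.32, adjusted p = 0.0107 for Ghrh). SP refractory 4 was at 8.80 CPM for Penk and 7.79 CPM for Ghrh, above late pre-hibernation in both (adjusted p = 0.00647 and 0.0145 with it). Cartpt, the precursor of a peptide that reduces feeding, went from 27.8 ± 11.7 to 62.4 ± 14.8 CPM but passed in 2 of those fits only, and SP refractory 4 was at 19.3 CPM. Kiss1, whose kisspeptins start the release of gonadotropin releasing hormone, ran from 0.775 through 2.06 to 3.35 CPM and was 2.58, 4.33, 10.2, 3.50 and 4.40 CPM. Refractory 3 was by far the highest, and the change of 1.22 became 0.79, past the threshold no longer, without it. Pdyn, the precursor of the dynorphins, fell from 102 ± 14.8 to 57.3 ± 11.7 CPM without overlap (-0.83 ± 0.22, adjusted p = 0.0229). The summed neuron markers were 980 ± 268 CPM in late pre-hibernation and 975 ± 160 CPM in refractory animals, a difference smaller than either SD (exact permutation p = 0.983). Npvf, the precursor of gonadotropin-inhibitory peptides, was at 0.653 ± 0.529 and 1.27 ± 1.62 CPM and did not pass (adjusted p = 0.464).

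Of 40 Wnt and Notch genes, 5 rose (12.5%, against 2.43% of all genes) and 2 fell (5.0%, against 3.19%), with a median of 0.079. Without refractory 2 only 2 members of the list passed. Notum, a secreted enzyme that inactivates Wnt proteins, had the largest rise of the genes named by size. It ran from 0.556 through 1.33 to 3.08 CPM in late pre-hibernation and was 6.27, 6.67, 6.31, 7.53 and 6.90 CPM in the refractory libraries. The refractory values lay close together, all above the late pre-hibernation range, and SP refractory 4 was at 9.48 CPM (2.12 ± 0.41, adjusted p = 0.00252). Wnt5a, a Wnt ligand, went from 12.4 ± 4.65 to 21.9 ± 4.93 CPM, with Jag1, a Notch ligand, Rspo2, a Wnt enhancer, and Fzd6, a Wnt receptor, also higher; Wnt5a did not pass with SP refractory 4 (adjusted p = 0.0843). Notch3, a Notch receptor, fell from 40.8 ± 11.1 to 21.1 ± 4.38 CPM, and Fzd1, another Wnt receptor, fell from 28.7 ± 4.49 to 19.4 ± 3.73 CPM.

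Receptors of glia and steroids were among the rises. Gpr37l1, a glial receptor, ran from 275 through 375 to 568 CPM in late pre-hibernation and was 705, 729, 603, 860 and 592 CPM in the refractory libraries. Every one of the 5 lay above late pre-hibernation, but SP refractory 4, at 203 CPM, lay below it, and with that library the change did not pass (0.80 ± 0.15, adjusted p = 0.00255, against 0.62 and adjusted p = 0.0785). Ntsr2, a neurotensin receptor of astrocytes, went from 58.1 ± 14.6 to 107 ± 13.1 CPM without overlap, and passed in 5 of the 11 fits with 1 library left out. SP refractory 4, at 38.9 CPM, lay under every late pre-hibernation library, and with it Ntsr2 did not pass (adjusted p = 0.0662). Gper1, a membrane receptor that responds to oestrogen, ran from 3.69 through 4.83 to 6.26 CPM and was 8.13, 9.48, 11.5, 9.68 and 8.21 CPM. It separated the groups as well, with SP refractory 4 low at 2.37 CPM (0.96 ± 0.21, adjusted p = 0.00773, and 0.0867 with that library). The oestrogen receptor Esr1 stood at 1.73 ± 0.86 and 1.22 ± 0.64 CPM and did not pass (adjusted p = 0.391). Aldh1l1, an astrocyte enzyme of folate metabolism, fell from 81.6 ± 12.9 to 46.7 ± 7.37 CPM, 1 of the 3 of 14 astrocyte markers below 0 (list median 0.24); their summed level was 5057 ± 858 and 5865 ± 412 CPM (exact permutation p = 0.0887).

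Other rises by size were Fam102a from 2.47 ± 0.38 to 6.04 ± 1.42 CPM, Lmcd1, a LIM protein that acts on transcription, from 27.6 ± 5.92 to 58.9 ± 9.30 CPM, and Slc5a11, a sodium-coupled inositol transporter, from 2.35 ± 1.11 to 4.67 ± 0.92 CPM. Fam102a and Lmcd1 did not overlap between groups and held in all 11 fits with 1 library left out, whereas Slc5a11 held in 6. SP refractory 4 stood with late pre-hibernation for both Fam102a (2.37 CPM) and Lmcd1 (21.7 CPM). Ret, a receptor tyrosine kinase, and Hhatl passed in 4 and 1 of those fits. Hhatl shares 26.6% of its exon bases with a gene on the opposite strand, and since counting was unstranded, reads of the pair cannot be told apart. Lhb, the luteinising hormone subunit of the pituitary, ran from 6.82 through 11.1 to 16.4 CPM in late pre-hibernation and was 15.8, 27.3, 87.3, 18.1 and 16.6 CPM in the refractory libraries. The value of 87.3 CPM is refractory 3, without which the change of 1.54 became 0.78 and did not pass. The summed 12 pituitary markers went from 285 ± 245 CPM (range 151 to 782) to 896 ± 886 CPM (range 187 to 2104; exact permutation p = 0.156), and all 12 had a log2 change above 0. Gh1, which defines growth hormone cells, was at 9.79 and 128 CPM (adjusted p = 0.100), and no pituitary marker was at 0 in all 11 libraries. The part of pituitary tissue in the rises of Lhb, Kiss1 and the other hormones was not tested.

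Fuel genes fell in small numbers. Of 42 genes of glucose use and glycolysis, 5 fell (11.9%, against 3.19% of all genes) and 1 rose (2.38%, against 2.43%). Of the 42, 30 lay below 0, where 50.9% of all genes did, and the median was -0.15. Without refractory 2 only 2 members of that list passed. Pygm, the muscle form of glycogen phosphorylase, ran from 86.6 through 114 to 159 CPM in late pre-hibernation and was 14.8, 20.4, 34.8, 29.5 and 39.2 CPM in the refractory libraries. The groups were far apart, and SP refractory 4, at 17.95 CPM, lay with the refractory animals (-2.12 ± 0.34, adjusted p = 0.000594). Eno2, an enolase of neurons, fell from 161 ± 24.2 to 102 ± 19.5 CPM, and Gapdh, an abundant glycolytic enzyme that has many pseudogene copies in mammals and is therefore less certain, from 1882 ± 104 to 1515 ± 148 CPM. Cpt1b, the muscle form of the enzyme that takes fatty acids into mitochondria, ran from 10.2 through 21.1 to 28.9 CPM and was 3.05, 5.85, 7.47, 4.27 and 11.6 CPM. It fell by 1.65 on the log2 scale (adjusted p = 0.00219) while Cpt1a, the liver form, did not pass at 64.2 ± 9.92 and 54.9 ± 12.0 CPM (adjusted p = 0.357). Pdk4, which limits the use of glucose in mitochondria, was at 5.75 ± 1.63 and 5.03 ± 1.68 CPM (adjusted p = 0.607). Cpt1b was 1 of 4 falls among 38 fatty acid genes, the others being Cpt1c, Slc25a20 and Pparg, and Ppargc1a, a co-activator of mitochondrial genes, rose. The falls were 10.5% of that list, against 3.19% of all genes, and the rise 2.63%, against 2.43%. Without late pre-hibernation 1 only 1 member of the list passed. Of 31 sterol genes, 5 fell (16.1%, against 3.19% of all genes). In that list 28 lay below 0, where 50.9% of all genes did, and the median was -0.22. Fdft1, which makes squalene, went from 125 ± 7.25 to 104 ± 2.78 CPM. No sterol gene passed without refractory 5, and 2 passed with SP refractory 4.

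**Figure D4:**
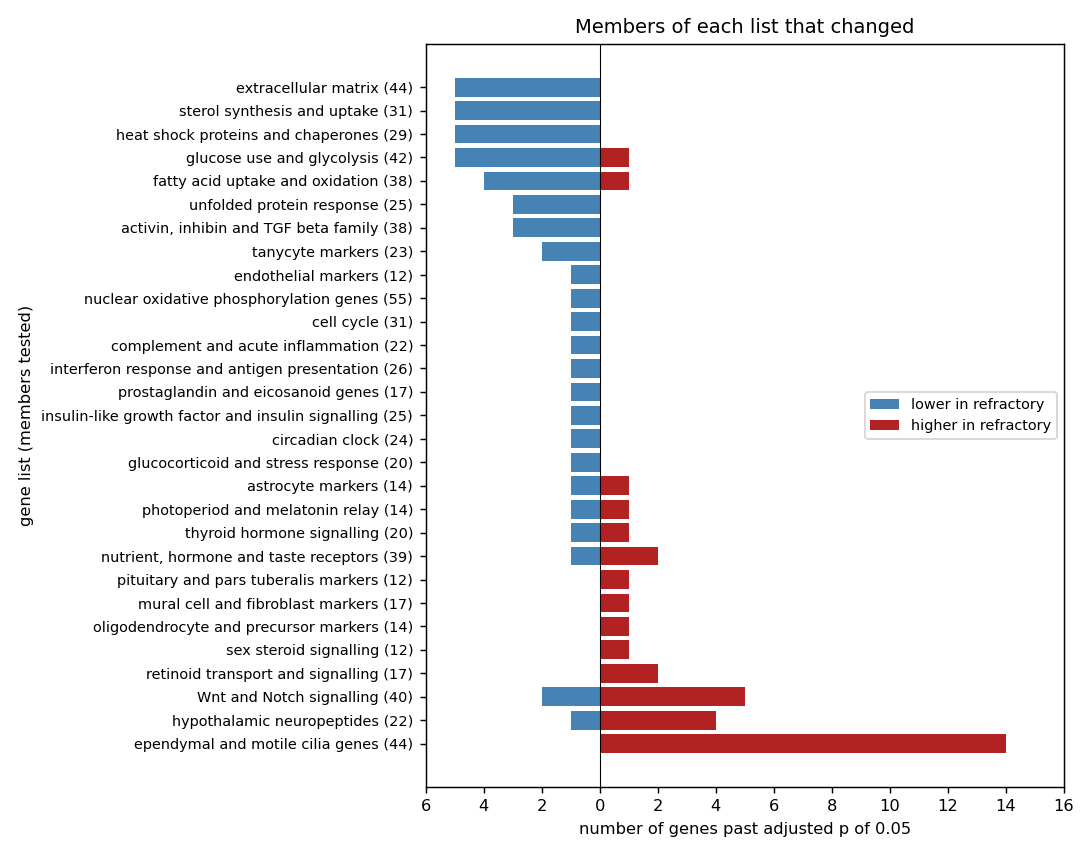
Number of genes past an adjusted p of 0.05 in each gene list that had any, lower in refractory to the left and higher to the right, with the number of members tested in brackets. Ependymal and motile cilia genes have 14 rises and no fall, and heat shock, sterol and matrix genes have 5 falls each and no rise.

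Lists with few or no calls included the 73 ribosomal protein genes, the 27 immediate early genes and the 8 RNA-binding genes linked to cold, each with 0 called in edgeR's quasi-likelihood test. At an unadjusted p under 0.05 the 3 lists had 3, 4 and 3 genes. DESeq2 called 0 in each, and limma voom called 1 in each. Rbm3, a cold-induced RNA-binding protein, was at 267 ± 29.5 and 232 ± 28.7 CPM (adjusted p = 0.160). Of 24 clock genes Npas2, a partner of the clock transcription factors, alone fell (4.17%, against 3.19% of all genes), from 34.2 ± 5.47 to 22.8 ± 4.10 CPM. Slc2a1 and Slc16a1, the glucose and lactate transporters of glia and vessels, did not pass (adjusted p = 0.113 and 0.817). Psmb8, a subunit of the immunoproteasome, fell from 39.5 ± 9.88 to 16.4 ± 4.55 CPM without overlap, the 1 call among 26 interferon response genes (3.85%, against 3.19% of all genes). Of the marker lists, microglia had 0 of 17 called in edgeR and in DESeq2, 4 higher in limma voom, 8 higher at an unadjusted p under 0.05 in edgeR, and a median of 0.44, with sums of 381 ± 72.7 and 489 ± 79.0 CPM (exact permutation p = 0.0390, adjusted p = 0.107). The endothelial sum was lower in refractory animals, 171 ± 17.6 against 132.5 ± 11.3 CPM (exact two-sided permutation test, p = 0.00433, the smallest it can give; adjusted p = 0.0476). That difference lay in Esam, an adhesion molecule of vessels, which fell from 58.2 ± 12.3 to 19.6 ± 6.48 CPM; without it the sums were 113 ± 22.2 and 113 ± 14.6 CPM (exact permutation p = 0.989). The median log2 change of the 12 endothelial genes was 0.38, opposite in sign to the sum. Blood cell markers were 6.59 ± 5.27 and 21.6 ± 12.9 CPM (exact permutation p = 0.0260, adjusted p = 0.0953). Lum, a matrix protein of fibroblasts, was the 1 rise among 17 mural and fibroblast markers (5.88%, against 2.43% of all genes). It was at 0.106 ± 0.097 and 0.779 ± 0.795 CPM, near the limit of detection. Without refractory 3 its log2 change went from 2.77 to 1.95 and did not pass (adjusted p = 0.0844 in edgeR's quasi-likelihood test).

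Many of the genes that changed had changed the other way at the start of the cold season. Between long photoperiod and 4 weeks of short days in the cold, 637 genes rose (3.56%) and 504 fell (2.82%), 6.37% in all, and this step shares no library with the comparison of refractory and late pre-hibernation animals. Refractory and long photoperiod animals are, however, both labelled 8 months old and reproductive, and were compared with groups labelled 6 and 4 months old. Age and reproductive state therefore cannot be told apart from season in the overlap that follows. Of the 572 falls in refractory animals, 264 were among the 637 early rises, which is 46.2% of the falls, against 3.56% of all genes, and 41.4% of the early rises. Of the 435 rises, 109 were among the 504 early falls, 25.1% of the rises, against 2.82% of all genes, and 21.6% of the early falls. In the main edgeR fit 0 genes passed in the same direction in both steps. Among the alternatives, 1 gene fell in both in 5 other edgeR fits, in DESeq2 and without late pre-hibernation 4 or refractory 3, and limma voom gave 2 such rises and 3 such falls. Over the 637 early rises the median log2 change in refractory animals was -0.46 and 93.4% lay below 0, against 50.9% of all genes; over the 504 early falls the median was 0.24 and 9.92% lay below 0. With all 36 libraries in the fit, so that pre-hibernation 5 also joined the early step, the counts were 156 and 20. With 1 refractory or late pre-hibernation library left out they ran from 142 to 350 and from 49 to 156.

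Several named genes show both steps. Inhba rose from 7.29 ± 2.34 CPM on long photoperiod to 68.9 ± 15.9 CPM at 4 weeks, stood at 63.6 ± 16.1 CPM in late pre-hibernation and at 13.8 ± 6.52 CPM in refractory animals. Cryab stood at 306.5 ± 48.0, 1312 ± 367, 1280 ± 353 and 383.5 ± 129 CPM in that order, and Ngfr at 6.56 ± 1.19, 35.5 ± 17.5, 55.8 ± 13.4 and 5.97 ± 1.99 CPM. In each of the 3 genes the refractory mean was within 2-fold of the long photoperiod mean. Notum showed the opposite course, 9.98 ± 4.24, 2.77 ± 1.03, 1.54 ± 0.84 and 6.74 ± 0.52 CPM. Other genes called in both steps had refractory means over 2-fold from their long photoperiod means. Among them were Trpc5 (5.26 CPM on long photoperiod, 28.3 CPM in refractory animals), Tesc (12.7 and 27.6 CPM), Esam (9.69 and 19.6 CPM) and Ntsr2 (227 and 107 CPM). The falls that had no matching early rise included Pdyn, at 105 ± 37.8 CPM on long photoperiod and 116 ± 19.6 CPM at 4 weeks, and Aldh1l1, at 60.3 ± 15.6 and 70.0 ± 8.47 CPM. None of the 14 cilia genes that rose had fallen at 4 weeks by the test. Tekt4, Cfap65 and Dnah12 lay below 0 there without passing (log2 change -0.29, -0.24 and -0.23, adjusted p = 0.189, 0.126 and 0.263). Their long photoperiod means were 222, 96.3 and 142 CPM. In late pre-hibernation they were at 164, 72.7 and 112 CPM, and in refractory animals at 244, 104 and 154 CPM.

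Across the 264 genes that rose early and were low in refractory animals, the median level relative to late pre-hibernation was -0.84 (log2) on long photoperiod, -0.05 at 4 weeks, -0.29 in interbout euthermia, -0.16 in torpor and -0.82 in refractory animals. The 109 opposite genes had medians of 0.59, 0.06, 0.22, 0.20 and 0.48 in the same order. Since the genes were chosen for their difference between long photoperiod and 4 weeks and between late pre-hibernation and refractory animals, all these levels are a description and carry no test.

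For a few genes the early change was not undone. When both changes were added in 1 contrast, which leaves out any change between 4 weeks and late pre-hibernation and is 0 where the second change equals the first in size, only Lrat and Uroc1 passed, 0.0112% of all genes. Lrat had fallen by 3.47 at 4 weeks and changed by 0.23 afterwards, a sum of -3.24 ± 0.58 (adjusted p = 0.0451). Uroc1, an enzyme of histidine breakdown, had risen by 1.71 and changed by -0.36, a sum of 1.35 ± 0.24 (adjusted p = 0.0451). Dio2 had fallen by 2.98 and changed by -0.13, a sum of -3.11 ± 0.58 that fell short of the threshold (adjusted p = 0.0526). A gene that does not pass this contrast is not shown to have returned in full.

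**Figure D5:**
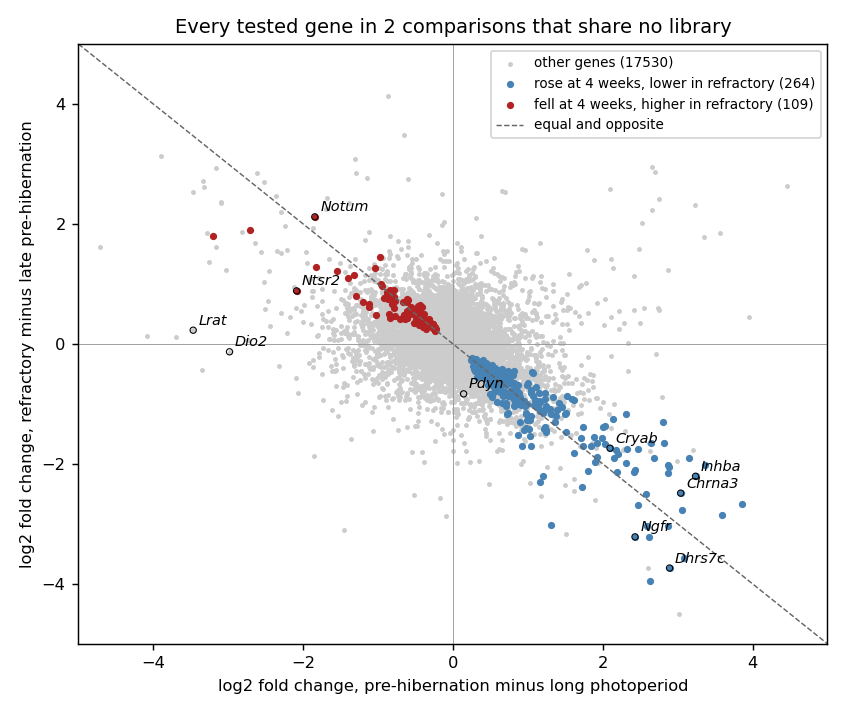
Log2 change of each of the 17903 tested genes at 4 weeks of short days in the cold against long photoperiod (x axis) and in refractory against late pre-hibernation animals (y axis), with the dashed line where the second change equals the first in size with opposite sign. The 264 blue and 109 red genes passed in both, and all lie in the quadrants of opposite change; Lrat and Dio2 lie near 0 on the y axis.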

How the data were processed

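Gene counts were used as the authors deposited them, 1 table per library. The counting was done with featureCounts 2.0.1 over the exons of RefSeq genes of BCM_Maur_2.0, paired-end and without strand, per the file headers. No source used here states the aligner; a folder name in the headers contains star. Genes were filtered with filterByExpr, scaled with TMM and fitted with a robust quasi-likelihood model in edgeR 4.0.16 (R 4.3.3) over the 33 libraries of all 6 groups that had under 5% of counts on ribosomal RNA genes; adjusted p-values are Benjamini-Hochberg over 17903 genes, with a threshold of 0.05. CPM use the TMM factors. Libraries are 1 animal each. The replicate numbers of the 2 groups were not used as pairs in the main fit. Same-number correlations were -0.22, 0.18, 0.03, 0.12 and 0.14, too few values to decide whether the numbers mark anything shared.

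Genes named are the 12 largest called rises and falls whose log2 CPM averaged 1 or more and whose symbol is no LOC number, up to 3 called members of each of 38 lists by smallest p, and fixed genes. Other list members and Hspb8, Hspa5, Hsf1, Foxj1, Crym, Gh1 and Uroc1 were named after their values were seen. The comparison, lists and fixed genes were chosen with earlier results of these data known. Alternatives used DESeq2 1.42.0 and limma 3.58.1. The workflow was tested on simulated data. Some list members and fixed genes are not reported here. Scaffold coordinates and sequences were not used here.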

Additional observations from a re-analysis of the deposited data

Results flagged for a closer look

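In each group every named gene's log2 CPM was checked for a single library far from the rest by Dixon's criterion, which chance meets in about 1 in 20 groups; 174 pairs of gene and group were looked at and 10 met it. Late pre-hibernation 4 accounted for 5 of them. It was lowest of its group for Cpt1a (45.95 CPM), Tpbgl (21.01 CPM), Rax (72.96 CPM), Elovl6 (7.292 CPM) and Asns (24.98 CPM). The same library had the highest summed neuron markers of its group, 1493 CPM, and the highest pituitary markers, 782 CPM. It was also highest for the astrocyte, microglia, endothelial, mural and fibroblast, and blood cell sums. The highest tanycyte sum was in late pre-hibernation 6, and the highest ependymal, oligodendrocyte and choroid plexus sums were in late pre-hibernation 2. In the other late pre-hibernation libraries, Lrat was low in 3 (2.461 CPM) and Ddit4 high in 5 (192.3 CPM). Refractory 3 was highest of its group for Tcerg1l (6.4 CPM) and Crabp1 (35 CPM) and lowest for Dnase2b (1.164 CPM). SP refractory 4 was far from the other 5 in its share of counts on ribosomal RNA genes (41.76%) and on mitochondrially encoded genes (18.27%). The part of these libraries in the gene results was not tested beyond leaving each out in turn.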

How the results depend on the processing

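The 435 rises and 572 falls in refractory animals became 118 and 276 with only SP refractory 4 left out, 122 and 304 with the 2 groups alone, 1329 and 1295 with limma voom, and 210 and 381 with no filter beyond 1 count; DESeq2 gave 760 rises. Leaving out 1 library gave 81 to 989 rises and 219 to 1102 falls. The share of rises among calls was 43.2%, but 54.6% with SP refractory 4, 29.9% with only it left out and 28.6% with the 2 groups alone. The 637 early rises and 504 early falls became 289 and 122 with all 36 libraries and 1088 and 1080 with voom; the early falls were 269 with 35 libraries and 276 without the filter, and 1 library left out gave 420 to 877 and 220 to 472. The cause was not tested. With the replicate number as a block, 434 genes rose and 651 fell, and 1 of 5 refractory libraries correlated best with its own number. Of the 70 named genes that were called, 51 were called with SP refractory 4, 46 with 35 libraries, 49 of 69 with the 2 groups alone, 70 with the block and 42 to 69 with 1 library left out, and 0 changed direction under any of these. Hr, Gpr50, Kiss1, Lhb, Dnah12, Cpt1c and Wnt5a were among those lost with the 2 groups alone. Dio3 and Trpv2, not called in the main fit, passed there. Without Esam, an alternative chosen after seeing the data, the endothelial difference went from -38.42 to 0.1476 CPM. The sum of both changes was also added after seeing the data. Marker sums with 1 library left out were not run, because the smallest p of that design could not pass adjustment.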

Other observations

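Some genes known from skeletal muscle were singled out after their values were seen, because they fell, with no test as a group. Of the 13 that were tested, 6 did not pass. Myh1, Myh2, Myh4 and Myh7, myosin genes, were also looked for but were not among the genes tested. Dysf, a membrane repair protein, went from 24.7 ± 5.52 to 7.57 ± 2.27 CPM (log2 change -1.71 ± 0.23, adjusted p = 3.23e-05), Tpm2, a tropomyosin, from 57.3 ± 13.1 to 23.3 ± 4.14 CPM (adjusted p = 9.99e-05) and Ckm, the muscle creatine kinase, from 55.7 ± 12.6 to 25.04 ± 7.41 CPM (adjusted p = 0.00128). None of the 3 overlapped between groups, and all had risen at 4 weeks in the cold. Pygm, Cpt1b and Dhrs7c, described above, are also known from muscle. Kcne1, also among the 13, fell from 11.5 ± 2.34 to 6.43 ± 1.53 CPM with overlap (adjusted p = 0.00204). The 6 that did not pass were low: Acta1 stood at 2.15 and 1.51 CPM, Ttn at 3.05 and 1.94 CPM, Tnnt3 at 0.805 and 0.928 CPM, Mybpc2 at 0.965 and 0.733 CPM, Mb at 3.03 and 2.65 CPM and Atp2a1 at 1.38 and 1.19 CPM.

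Of the called genes, 193 carry only a LOC number. The pair with the smallest p among them, both lower in refractory animals, were LOC106021876, from 9.15 ± 5.16 to 0.584 ± 0.257 CPM (-3.95 ± 0.44, adjusted p = 4.22e-06), and LOC101829141, from 18.1 ± 4.72 to 6.63 ± 1.52 CPM (-1.44 ± 0.17, adjusted p = 4.56e-06). Spp1, a secreted phosphoprotein, reached 53.9 CPM in refractory 3 against 1.46 to 5.65 CPM in the other 4 refractory libraries and did not pass (adjusted p = 0.318).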
